A study of Mus musculus with 9 samples.

Results

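The T-box genes T, Eomes, Tbx1, Tbx2, Tbx3, Tbx4, Tbx5, Tbx15, Tbx18 and Tbx20 were followed through RING1B ChIP-seq peak lists of Eed-/- and Eed+/+ mouse embryonic stem cells (mESCs). A peak was counted for one of these 10 genes when the list named exactly that gene as its nearest gene. This gave 9 of the 1810 Eed-/- peaks, at 5 of the 10 genes, and 19 of the 2347 Eed+/+ peaks, at all 10. Both lists came from C57BL/6 mESCs. The Eed-/- cells are mutant for Eed and lack H3K27me3, and the Eed+/+ cells are their wild type counterpart. The RING1B data comprised 3 Eed-/- samples, labelled as replicates and described in the methods as lanes and pooled, and 1 Eed+/+ sample, beside 3 samples of Eed+/+ input. One CBX7 sample of each genotype was not analysed here. Each genotype therefore has 1 peak call and no replicate error, so no difference between the genotypes was tested.

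The T-box family shares a DNA-binding domain and directs the formation of mesoderm, heart, limbs and craniofacial structures in the embryo. In mESCs most of these genes are silent and are classic targets of Polycomb repression. PRC2, of which EED is a core subunit, deposits H3K27me3, and PRC1, through its catalytic subunit RING1B, monoubiquitylates histone H2A. The CBX proteins of canonical PRC1 bind H3K27me3. The comparison of Eed-/- with Eed+/+ cells asks where RING1B is found at these genes in the absence of H3K27me3.

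A peak is a stretch of the mm9 genome where sequenced tags exceeded the background, as called by the authors with MACS, and every listed peak held more than 100 tags. RING1B below that threshold was not measured, so a gene with no peak is not a gene shown to lack RING1B. The Eed-/- data were 4.18 times as deep as the Eed+/+ data in mapped tags. Levels are therefore given as tags per kb of peak per 1000000 mapped tags, with exact 95% Poisson intervals that cover counting error only. The 9 Eed-/- T-box peaks had levels of 1.20 to 1.60 (median 1.47), against 2.33 to 10.9 (median 4.91) in the 19 Eed+/+ T-box peaks. At a given width, the tag minimum makes the lowest level that can be listed 4.18 times as high in Eed+/+ as in Eed-/-. The part of this minimum in the difference was not tested. Fold enrichment over background, as the lists give it, was 3.78 to 7.99 in Eed-/- and 6.59 to 44.7 in Eed+/+. The control library behind it is not given in the sources used here, and the input samples are of Eed+/+ cells, so fold enrichments of the genotypes are set side by side only.

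The bases before the start site are shown for genes in which both genotypes had a peak (T, Eomes, Tbx1, Tbx18) and for genes with a peak only in Eed+/+ (Tbx4, Tbx20), because over 95% of the peaks of each list held a CpG island. Of the 10 genes, 6 had a promoter in the RefSeq table used (GRCm38.p6). Tbx2, Tbx3, Tbx5 and Tbx15 are named only. The 250 bases before each start were matched without mismatch to mm9, where they lie at chr17:8627038-8627287 for T, chr9:118387057-118387306 for Eomes and chr11:85710017-85710266 for Tbx4, all on the plus strand. Those on the minus strand lie at chr16:18588993-18589242 for Tbx1, chr9:87626096-87626345 for Tbx18 and chr9:24578748-24578997 for Tbx20. Each is written 5′ to 3′ on the gene's strand with CG dinucleotides in capitals.
T promoter: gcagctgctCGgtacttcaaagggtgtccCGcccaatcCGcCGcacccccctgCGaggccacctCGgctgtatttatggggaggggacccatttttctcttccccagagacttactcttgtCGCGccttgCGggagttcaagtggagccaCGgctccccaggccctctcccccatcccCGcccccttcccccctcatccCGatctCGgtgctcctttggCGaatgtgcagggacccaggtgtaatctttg
Eomes promoter: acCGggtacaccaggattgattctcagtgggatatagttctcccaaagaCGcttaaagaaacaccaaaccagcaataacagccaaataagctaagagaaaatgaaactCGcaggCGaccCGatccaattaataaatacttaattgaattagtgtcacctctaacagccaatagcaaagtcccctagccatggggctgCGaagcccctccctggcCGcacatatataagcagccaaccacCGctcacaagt
Tbx1 promoter: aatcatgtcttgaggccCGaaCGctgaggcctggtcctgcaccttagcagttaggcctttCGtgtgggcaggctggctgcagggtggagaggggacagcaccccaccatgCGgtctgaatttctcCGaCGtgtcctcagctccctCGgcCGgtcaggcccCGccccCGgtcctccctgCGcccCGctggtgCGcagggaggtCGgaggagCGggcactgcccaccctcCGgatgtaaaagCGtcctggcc
Tbx18 promoter: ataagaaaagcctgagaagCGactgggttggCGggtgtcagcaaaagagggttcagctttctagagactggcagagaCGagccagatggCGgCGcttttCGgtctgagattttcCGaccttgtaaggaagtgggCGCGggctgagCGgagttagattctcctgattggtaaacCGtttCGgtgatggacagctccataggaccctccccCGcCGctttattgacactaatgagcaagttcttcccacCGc
Tbx4 promoter: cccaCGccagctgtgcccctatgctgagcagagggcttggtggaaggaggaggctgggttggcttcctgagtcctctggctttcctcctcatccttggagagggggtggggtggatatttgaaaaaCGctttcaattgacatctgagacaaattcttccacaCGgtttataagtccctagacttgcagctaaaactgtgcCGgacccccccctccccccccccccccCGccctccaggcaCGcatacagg
Tbx20 promoter: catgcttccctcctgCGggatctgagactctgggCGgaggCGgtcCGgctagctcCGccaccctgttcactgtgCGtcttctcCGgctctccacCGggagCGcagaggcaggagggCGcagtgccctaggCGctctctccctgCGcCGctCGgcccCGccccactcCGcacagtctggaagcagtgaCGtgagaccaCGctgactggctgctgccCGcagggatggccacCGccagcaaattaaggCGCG

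These windows held 14 CG dinucleotides for T, 8 for Eomes, 17 for Tbx1 and 15 for Tbx18, against 6 for Tbx4 and 22 for Tbx20. The median over 32841 promoter windows of the table was 6, and 14.8% of them held as many as Tbx20. The Tbx20 window, the densest of the 6, lay whole within an Eed+/+ peak and under no Eed-/- peak, so a CG-dense promoter was not always accompanied by a peak in Eed-/- cells. Of the 250 bases, Eed-/- peaks covered 222 for T, 60 for Eomes, all 250 for Tbx1 and 2 for Tbx18. The Tbx4 window, before a RefSeq start inside the annotated gene and past both of its Eed+/+ peaks, lay under no peak of either list. A second RefSeq start of Tbx1, at position 18590764, had 10 CG in its window and was covered in full in both genotypes. Both strands of the 7 windows were searched for 2 exact words. None held the T-box half-site spelling AGGTGTGA (1.12% of all windows hold it) or the palindromic E-box CACGTG (6.02% of all windows). Few windows hold either word, so their absence is not read as a trait of these genes. Variant spellings were not searched.

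Over the 10 genes, the listed RING1B peaks were fewer, narrower and lower in Eed-/- cells. All 9 Eed-/- T-box peaks shared at least 1 bp with an Eed+/+ peak (exact 95% binomial interval 66.4% to 100%), against 73.1% of all Eed-/- peaks. No T-box gene of the 10 thus had an Eed-/- peak away from its Eed+/+ peaks. In the other direction, of the 19 Eed+/+ T-box peaks, 6 shared at least 1 bp with an Eed-/- peak (31.6%, interval 12.6% to 56.6%), against 53.1% of all Eed+/+ peaks. By gene, 5 of the 10 had a peak in Eed-/- cells, against 61.4% of all 1919 gene names in the Eed+/+ list. These 2 shares lie below those in the whole list, and their intervals include the whole-list shares (18.7% to 81.3% by gene). The binomial intervals treat peaks or genes as separate draws. Peaks of 1 gene are not separate, as 4 of the 9 Eed-/- peaks lie on 1 Eed+/+ peak of Tbx1 and 2 are at Tbx18. The intervals by peak may therefore be too narrow.

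**Figure D1:**
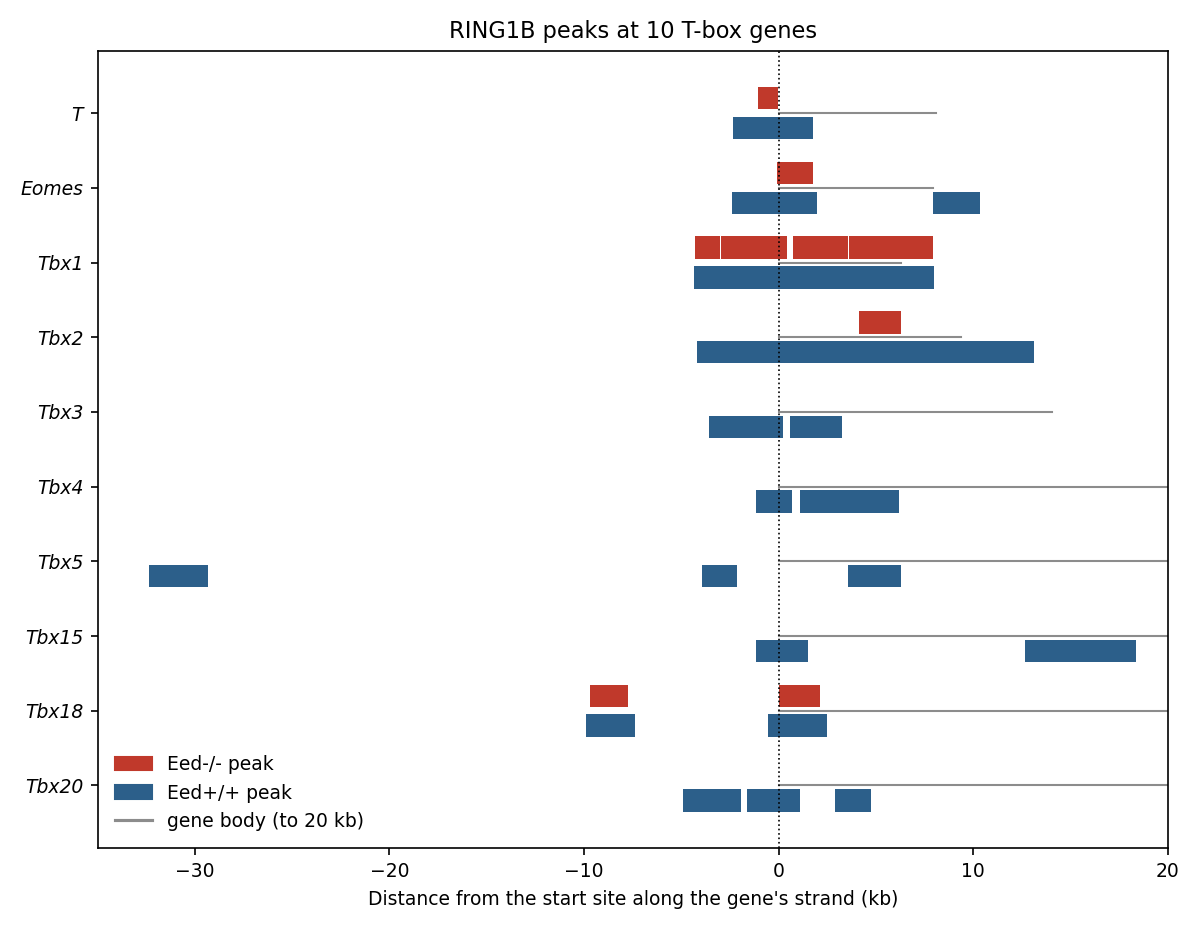
RING1B peaks of Eed-/- (red, upper) and Eed+/+ mESCs (blue, lower) at each gene, by distance in kb from the start site along the gene's strand, with the gene body in grey up to 20 kb. T, Eomes, Tbx1, Tbx2 and Tbx18 have red bars, each within a blue one, and the other 5 genes have blue bars only.

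T (Brachyury) is required for mesoderm and notochord formation, and Eomes for the exit from pluripotency towards mesoderm and definitive endoderm. At T, the Eed-/- peak (chr17:8626203-8627259) held 109 tags at a level of 1.47 (1.20 to 1.77), and the Eed+/+ peak (chr17:8624967-8629079) held 488 tags at 7.06 (6.44 to 7.71). The level in Eed-/- was 0.208 times that in Eed+/+ (interval 0.167 to 0.256). The Eed-/- peak ran from -1085 to -29 bp and so stopped short of the start site, whereas the Eed+/+ peak ran from -2321 to 1791 bp across it. The summit lay at -704 bp in Eed-/- and at 236 bp in Eed+/+. Among the 10 genes, T had the narrowest peak in Eed-/- (1057 bp, rank 1790 of 1810 by width) but the highest fold enrichment in Eed+/+ (44.7).

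At Eomes, the Eed-/- peak (chr9:118387247-118389079) held 183 tags at a level of 1.42 (1.22 to 1.64), against 508 tags at 6.94 (6.35 to 7.57) in the Eed+/+ peak (chr9:118384957-118389312), a ratio of 0.205 (0.172 to 0.243). The Eed-/- peak ran from -83 to 1749 bp, over the start site and the first part of the gene. The Eed+/+ peak ran from -2373 to 1982 bp with its summit at -1275 bp, so the upstream stretch of this domain, where the Eed+/+ signal was highest, had no Eed-/- peak. The Eed-/- summit lay 2272 bp further along the gene, at 997 bp. A second Eed+/+ peak, from 7955 to 10343 bp past the start at the end of the gene (132 tags, level 3.29), had no Eed-/- counterpart.

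Tbx1, a regulator of pharyngeal and outflow tract development, kept RING1B peaks over nearly its whole domain. In Eed-/- cells 4 peaks lay side by side, at chr16:18580165-18584501, chr16:18584547-18587382, chr16:18587685-18591099 and chr16:18591144-18592433, with 401, 312, 287 and 136 tags. In Eed+/+ cells a single peak of 12366 bp (chr16:18580110-18592475, 2270 tags) covered the gene from end to end, at the highest level of the 10 genes (10.9, interval 10.5 to 11.4). It ranked 14th of 2347 by width and 4th by tags, and the 4 Eed-/- peaks together covered 96.1% of it. Only 2 peaks of the whole Eed+/+ list carried as many as 4 Eed-/- peaks.

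The 4 Eed-/- levels at Tbx1 were 1.31, 1.56, 1.20 and 1.50, which is 0.109 to 0.143 times the Eed+/+ level. Tbx1 thus combined the largest covered length of the 10 genes in Eed-/- cells with the lowest level ratio of their 6 pairs (0.120). By covered bp it ranked 6th of 1587 gene names in Eed-/- and 69th of 1919 in Eed+/+. Distances here are from the outermost start of Tbx1 in the GENCODE annotation, and the RefSeq starts of its promoter windows lie further upstream. The Eed-/- peak of highest fold enrichment at the 10 genes (7.99) ran from 731 to 3566 bp past that start. It lay over the other GENCODE start of Tbx1, and the peak over the outermost GENCODE start had a fold enrichment of 3.84. One Eed-/- summit, 5879 bp past the start, lay within 1 bp of the Eed+/+ summit.

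Tbx2 and Tbx3 encode closely related repressors, and Tbx3 is also expressed in mESCs, where it is linked to self-renewal. At Tbx2, Eed-/- cells had a single peak of 2145 bp (chr11:85650179-85652323, 241 tags, level 1.60, interval 1.40 to 1.81). In Eed+/+ cells the peak was the second widest of the list, at 17357 bp (chr11:85641834-85659190, 2136 tags, level 7.32, interval 7.01 to 7.64), from -4219 to 13137 bp and over the whole gene. The Eed-/- peak covered 12.4% of that length. It lay inside the gene, from 4126 to 6270 bp, with no Eed-/- peak at the start site. Its summit was 14 bp from the Eed+/+ summit, and its level was 0.218 times the Eed+/+ level (0.190 to 0.249), the highest ratio at the 10 genes.

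Tbx3 had no Eed-/- peak and the lowest Eed+/+ level of the 10 genes with its peaks summed (3.13). The peak upstream and over the start (chr5:120117109-120120926, 237 tags) had a level of 3.69 (3.24 to 4.19) and a fold enrichment of 6.59, and the peak in the gene (chr5:120121254-120123911, 104 tags) a level of 2.33 (1.90 to 2.82) and a fold enrichment of 12.8. The level of the peak in the gene ranked 2318th of 2347. The nearest Eed-/- peak was 756703 bp away.

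Tbx4 and Tbx5 are regulators of hindlimb and forelimb development, and Tbx5 is also needed in the heart. Neither had an Eed-/- peak. Tbx4 is the neighbour of Tbx2. Its first Eed+/+ peak lay at chr11:85698756-85700603, over the outermost start (136 tags, level 4.38, interval 3.67 to 5.18). Its other Eed+/+ peak lay at chr11:85701035-85706115, inside the gene and over another annotated start (513 tags, level 6.01, interval 5.50 to 6.55). The Eed-/- peak nearest to the Tbx4 peaks was that of Tbx2, 46432 bp from the first.

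Tbx5 had 3 Eed+/+ peaks, none of them over the start site. The strongest (chr5:120252337-120255341, 356 tags, level 7.05, interval 6.33 to 7.82) lay 29331 bp upstream of the start, and its fold enrichment of 28.5 was the highest among the Eed+/+ T-box peaks with no Eed-/- counterpart. The other two, at chr5:120280753-120282510 (133 tags, level 4.50) and chr5:120288225-120290970 (138 tags, level 2.99), lay 2162 bp upstream of the start and 3553 bp inside the gene. The distal peak was named for Tbx5 as the nearest gene, which need not be the gene it acts on.

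Tbx15 and Tbx18 are close relatives with roles in the skeleton and skin (Tbx15) and in the sinus node, epicardium and somites (Tbx18). At Tbx15 the peak over the outermost start (chr3:99043132-99045815, 264 tags) had a level of 5.85 (5.17 to 6.60) in Eed+/+. The peak inside the gene, over another annotated start (chr3:99056959-99062696, 355 tags), had 3.68 (3.31 to 4.08). Neither Tbx15 peak was overlapped in Eed-/- cells. At Tbx18 both Eed+/+ peaks were overlapped, and the Eed-/- peaks filled most of them.

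Over the Tbx18 start site the Eed-/- peak (chr9:87623949-87626097, 229 tags, level 1.52, interval 1.33 to 1.72) covered 71.1% of the Eed+/+ peak (chr9:87623622-87626644, 550 tags, level 10.8, interval 9.94 to 11.8), at 0.140 times its level (0.120 to 0.164). The Eed-/- peak at the upstream site (chr9:87633821-87635771, 174 tags, level 1.27, interval 1.09 to 1.47) covered 78.8% of the Eed+/+ one (chr9:87633500-87635974, 271 tags, level 6.51, interval 5.76 to 7.34), at 0.195 times its level (0.160 to 0.236). This was the only Eed-/- peak at the 10 genes to lie more than 5 kb upstream of its gene, 7726 bp from the start. The 200 bases around its summit (chr9:87635250-87635449, mm9, plus strand) are shown with CG dinucleotides in capitals, 11 in all, because they carry RING1B in both genotypes outside a promoter.
Tbx18 upstream summit: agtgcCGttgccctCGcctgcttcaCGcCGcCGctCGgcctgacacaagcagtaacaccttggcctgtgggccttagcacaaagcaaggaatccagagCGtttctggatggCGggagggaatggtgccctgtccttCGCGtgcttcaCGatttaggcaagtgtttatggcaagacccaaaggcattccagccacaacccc

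Tbx20, a heart regulator, had 3 Eed+/+ peaks and none in Eed-/- cells. They lay inside the gene (chr9:24574004-24575843, 152 tags, level 4.91, interval 4.16 to 5.76), over the start (chr9:24577660-24580393, 198 tags, level 4.31, interval 3.73 to 4.95) and upstream (chr9:24580668-24583648, 164 tags, level 3.27, interval 2.79 to 3.81). Fold enrichments inside the gene and over the start were 21.8 and 21.5, and that of the upstream peak was 7.69. The nearest Eed-/- peak was 1545500 bp away.

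**Figure D2:**
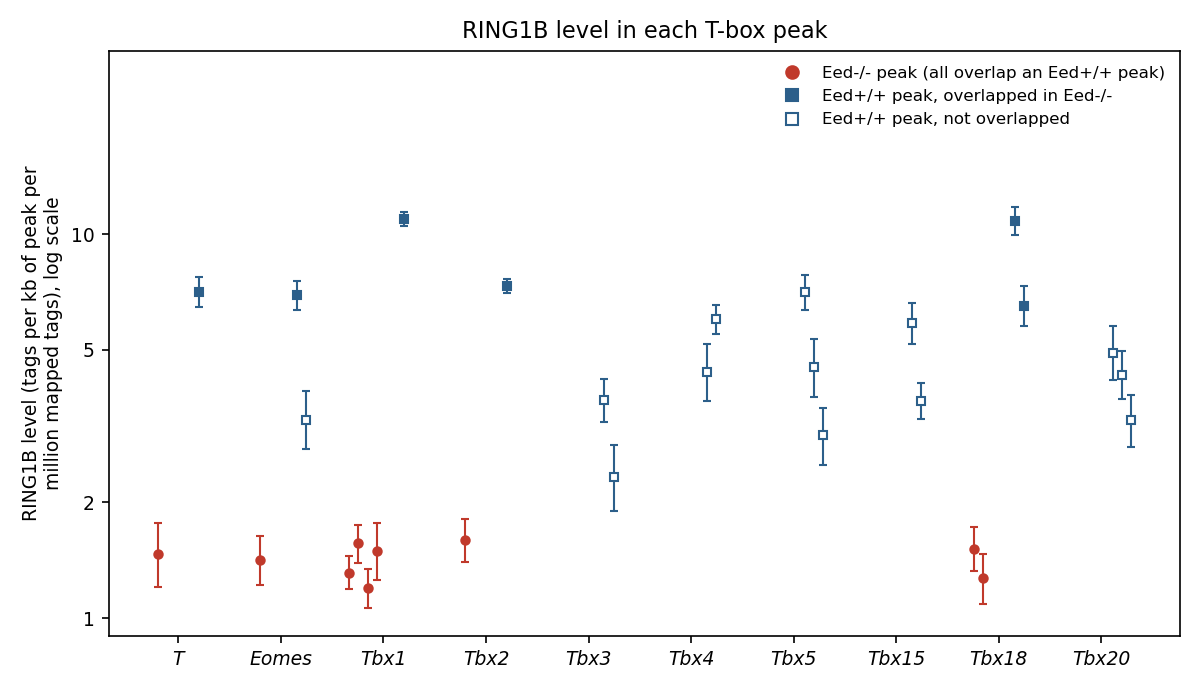
RING1B level (tags per kb of peak per 1000000 mapped tags, log axis) of each peak with exact 95% Poisson intervals, Eed-/- left (red) and Eed+/+ right (blue) for each gene. All 9 Eed-/- peaks lie at or below 1.60, under every Eed+/+ peak, and the Eed+/+ peaks overlapped in Eed-/- cells (filled) lie between 6.51 and 10.9. At a given width the tag minimum admits lower levels in the deeper Eed-/- data, and its part in this order was not tested.

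Start sites were compared next. In Eed-/- cells a peak lay over an annotated start of 3 of the 10 genes (Eomes, Tbx1, Tbx18), against 9 of the 10 in Eed+/+ cells, where Tbx5 was the exception. Counting the start site of any annotated gene, 55.6% of the Eed-/- and 63.2% of the Eed+/+ T-box peaks lay over one, against 77.1% of all Eed-/- and 76.0% of all Eed+/+ peaks. Of these, 5 of 12 Eed+/+ T-box peaks were overlapped in Eed-/- cells (41.7%, interval 15.2% to 72.3%). Over all 1784 Eed+/+ peaks over a start site the share was 59.4%, which lies within that interval.

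In the 6 pairs of an Eed+/+ peak and the Eed-/- peak of longest overlap, the median ratio of levels was 0.200 (0.120 to 0.218), beside a median of 0.225 over all 1247 pairs of the lists. The Eed-/- level was below the Eed+/+ level in all 6 T-box pairs and in all 1247 pairs, so a lower level in Eed-/- was shared with the rest of the list. At a given width the tag minimum admits lower levels in Eed-/- than in Eed+/+, and its part here was not tested. The inverse of the depth ratio is 0.239, near both medians, and the part of sequencing depth in these ratios was not tested. Each level is a mean over the peak's own width, so the ratio sets a narrower Eed-/- interval against a wider Eed+/+ one.

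**Figure D3:**
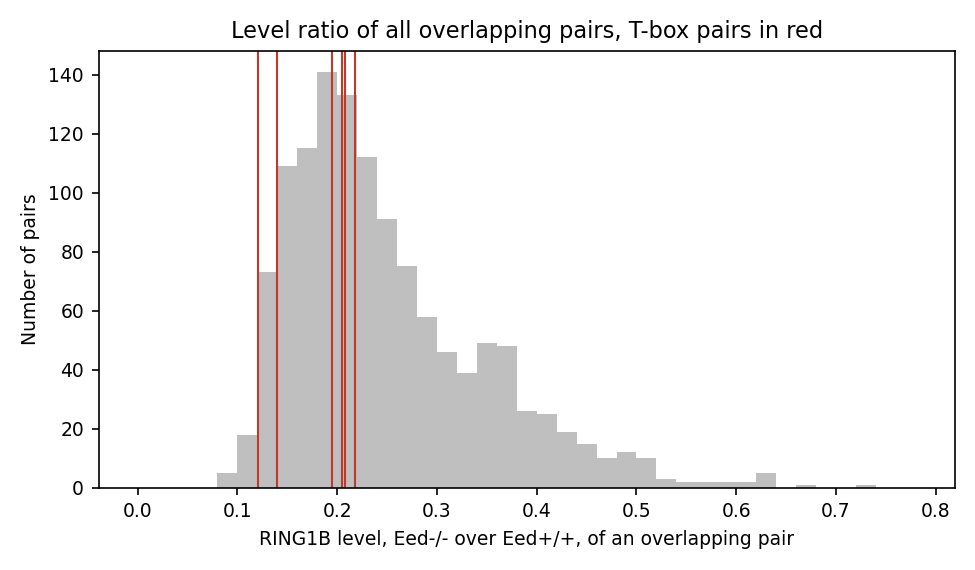
Number of overlapping pairs by the ratio of RING1B level in Eed-/- over Eed+/+, for all 1247 pairs (grey), with the 6 T-box pairs as red lines. The red lines, from 0.120 (Tbx1) to 0.218 (Tbx2), fall within the bulk of all pairs, whose median is 0.225.

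Widths were compared in the same pairs. The Eed-/- peak lay entirely inside its Eed+/+ partner in 6 of 6 T-box pairs (interval 54.1% to 100%), against 57.4% of all pairs, which lies within that interval. Its width was 0.386 times that of the partner in the median T-box pair, with medians of 2048 bp in Eed-/- and 4234 bp in Eed+/+. Over all pairs the median was 0.833, with 2340 bp in Eed-/- and 2904 bp in Eed+/+. These values count 1 of the 4 Eed-/- peaks at Tbx1. With the widths of all Eed-/- peaks on an Eed+/+ peak summed, an alternative added after the data were seen, the medians were 0.566 in the T-box pairs and 0.843 over all pairs. Summed over the 10 genes, Eed-/- peaks covered 21013 bp and Eed+/+ peaks 82970 bp, which is 25.3%, against 58.9% over the whole lists. Tbx1 decided much of this share, which was 12.9% without it, an alternative also added after the data were seen. By gene, the share was 96.1% at Tbx1, 74.6% at Tbx18, 27.2% at Eomes, 25.7% at T and 12.4% at Tbx2.

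**Figure D4:**
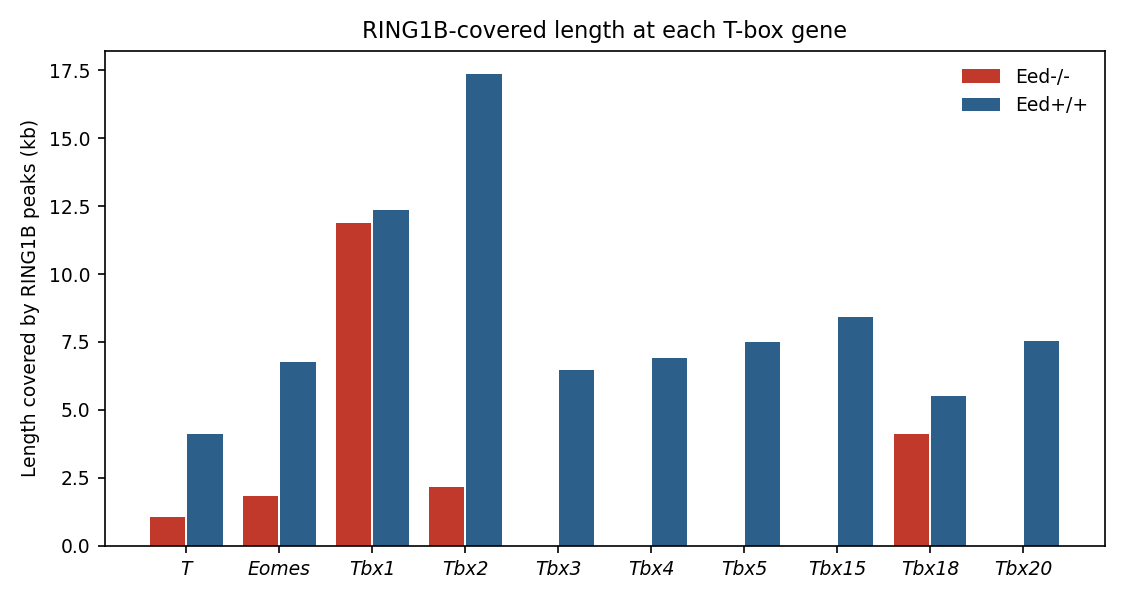
Length covered by RING1B peaks at each gene in kb, Eed-/- left (red) and Eed+/+ right (blue). Tbx1 has nearly equal bars, Tbx18 has 4100 bp in Eed-/- against 5498 bp in Eed+/+, Tbx2 has 2145 bp in Eed-/- against 17357 bp in Eed+/+, and Tbx3, Tbx4, Tbx5, Tbx15 and Tbx20 have no red bar.

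The Eed+/+ T-box peaks that were overlapped in Eed-/- cells stood out from the others in several measures of the Eed+/+ list. Their fold enrichment was 24.9 to 44.7 (median 36.9), against 6.59 to 28.5 (median 16.9) in the 13 with no counterpart, and their tags were 271 to 2270 (median 529) against 104 to 513 (median 164). The overlapped peaks were also wider, at 2475 to 17357 bp (median 4234) against 1758 to 5738 bp (median 2734). A wider peak holds more tags at the same level and meets a 1 bp overlap more easily. Whole-list median widths were 2904 and 2462 bp. Levels overlapped between these sets only through the distal Tbx5 peak, at 6.51 to 10.9 against 2.33 to 7.05. Over the whole list the medians of fold enrichment ran the same way, 19.7 in overlapped and 13.3 in other Eed+/+ peaks.

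CG density followed the same order. The overlapped Eed+/+ T-box peaks held 4.21 to 6.81 CG per 100 bp (median 4.81), and the others 2.95 to 4.69 (median 3.43), where the genome average is 0.834. Whole-list medians were 5.51 and 4.40. Within each of the 6 overlapped domains, the bases under Eed-/- peaks were denser in CG than those outside them. They held 7.19 against 3.17 per 100 bp at T, 7.64 against 4.12 at Eomes, 5.13 against 1.43 at Tbx1 and 5.83 against 4.16 at Tbx2. At Tbx18 the values were 8.42 against 2.86 over the start site and 5.48 against 1.53 at the upstream site. Eed-/- peaks covered 96.1% of the Tbx1 domain and 71.1% and 78.8% of the Tbx18 domains, so the outside values there rest on short stretches. The same comparison over the whole list is not given here, so it is not read as particular to the T-box genes. A CpG island found by sequence lay in 9 of 9 Eed-/- and 17 of 19 Eed+/+ T-box peaks, against 95.8% and 95.3% of all peaks. The exceptions were the Tbx5 peak inside the gene and the upstream Tbx20 peak.

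**Figure D5:**
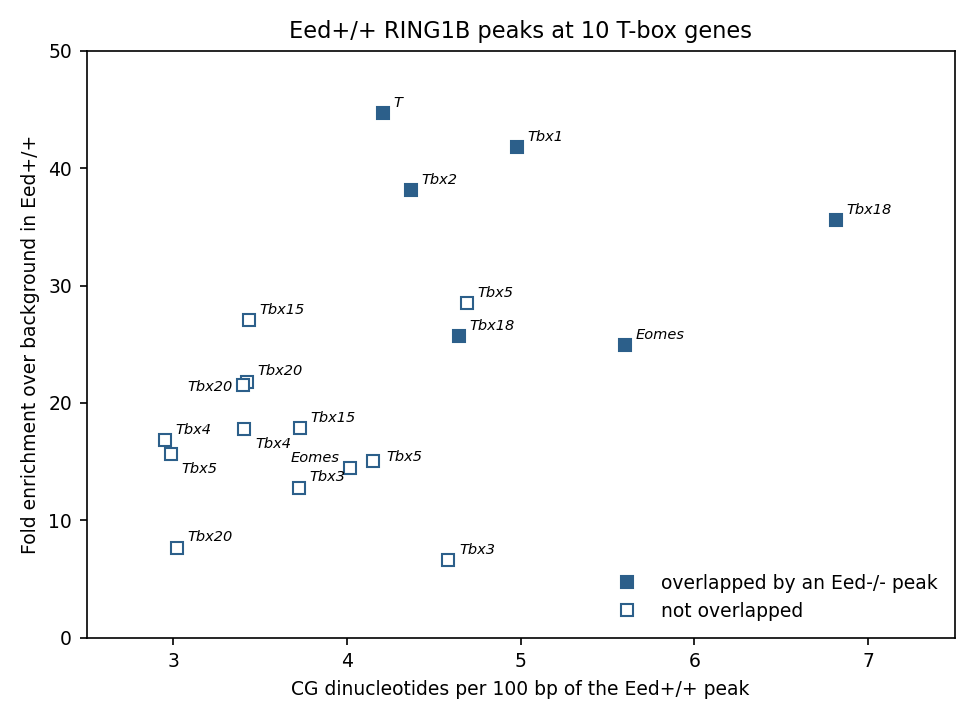
Fold enrichment over background in Eed+/+ against CG dinucleotides per 100 bp, for the 19 Eed+/+ T-box peaks, filled where an Eed-/- peak overlaps. The 6 filled peaks all lie at or above 24.9-fold and 4.21 CG per 100 bp, and only the distal Tbx5 peak is open in that area.

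The tag minimum was set against the Eed+/+ levels. Over the widths of the 13 Eed+/+ T-box peaks with no counterpart, the tag count of the weakest listed peaks would be 4.71% to 23.2% of the Eed+/+ level. In 12 of the 13 this lies below the median T-box ratio of 20.0%, the exception being the Tbx3 peak in the gene. That ratio comes only from the 6 pairs with a listed Eed-/- peak, each narrower than its Eed+/+ partner. It therefore does not show what level the 13 sites had in Eed-/- cells, or whether they would have passed the tag minimum. The FDR threshold and the background of each site also bear on whether a peak is listed. The part of the tag minimum, the FDR threshold and the background was not tested. FDR values of the 9 Eed-/- T-box peaks were 0.73% to 1.57%, beside a highest value of 1.99% in the list, and all 19 Eed+/+ T-box peaks were listed at 0. At an FDR of 1% or less, 3 Eed-/- T-box peaks were left (2 at Tbx1 and 1 at Tbx18), out of 436 of the 1810.

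Of 7 other T-box genes, Tbx6, Tbx10, Tbx19 and Tbx22 had no peak in either list. Tbr1, a cortical neuron regulator, had 2 Eed-/- peaks (fold enrichment up to 10.0) and 3 Eed+/+ peaks (up to 52.6), of which 2 were overlapped. Tbx21 (T-bet), a T helper cell regulator, had 1 overlapping peak in each genotype, at levels of 1.18 in Eed-/- and 5.03 in Eed+/+. Mga, a partner of MAX that also carries a T-box, had 2 Eed-/- peaks at levels of 2.66 and 1.50 and 1 Eed+/+ peak at 4.01. The Mga peak at the level of 1.50 overlapped no Eed+/+ peak. In all, 4 of the 5 Eed+/+ peaks at these genes were overlapped in Eed-/- cells, against 53.1% of the whole list, and with 5 peaks no difference from the other T-box genes was tested.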

How the data were processed

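Chromatin of Eed-/- and Eed+/+ mESCs was immunoprecipitated for RING1B. The authors mapped tags to mm9 with Bowtie, kept unique positions (70343706 tags in Eed-/-, 16814546 in Eed+/+, as the methods state) and ran MACS separately for each genotype, keeping peaks under an FDR threshold with over 100 tags. Tool versions were not given in the sources used here. The deposited lists give, per peak, position, raw tag count, fold enrichment, FDR in percent and nearest gene. Column flags comparing the lists were not used.

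From these, overlaps (1 bp or more), levels (tags per kb per 1000000 mapped tags), exact Poisson and conditional binomial intervals (95%) and ranks were computed with Python 3.11.15, numpy 2.4.6 and scipy 1.17.1. Start sites came from GENCODE M1 and CpG islands from the mm9 sequence (at least 200 bp, 50% GC, observed to expected ratio 0.6). Overlap code and intervals were tested on simulated data. All 10 genes were named with every peak. The 7 other T-box genes were all named, and of each further list up to 4 genes of highest Eed+/+ fold enrichment with an overlapping Eed-/- peak and up to 4 without. The genes and lists were chosen with earlier results of these data known. Alternatives covered the overlap minimum, FDR, assignment by position, depth and the ratio's definition.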

Additional observations from a re-analysis of the deposited data

How the results depend on the processing

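No paired analysis was possible because each genotype has 1 peak list. Requiring an overlap of 50% of both peaks left 22.2% of Eed-/- and 10.5% of Eed+/+ T-box peaks overlapped, both at Tbx18. An FDR of 1% or less left 3 Eed-/- peaks, 10.5% of Eed+/+ peaks overlapped and a covered length of 10.1% of that in Eed+/+. No Eed-/- T-box peak would have held over 100 tags at the Eed+/+ depth, which gives 0 peaks and 0% of Eed+/+ peaks overlapped and leaves no ratio. This alternative scales tags by depth only. The median Eed-/- peak held 229 tags at the T-box genes and 204 over the whole list, so losses at this setting would extend to the whole list. Overlap and covered shares over the whole lists were not set beside these alternatives, so none is read as particular to the T-box genes. The covered share was 12.9% without Tbx1, added after the data were seen, and 28.8% without Tbx2. With all Eed-/- peaks on an Eed+/+ peak summed, also added later, the median width ratio was 0.566, against 0.386 with the peak of longest overlap. The median level ratio stayed between 0.167 (overlap of 50% of both peaks, 2 pairs) and 0.208 (tags summed per gene). With fold enrichment in place of level the median was 0.141. The control library of fold enrichment is not given in the sources used here, so this value is not read as a level ratio. Assignment by position, within 10 kb of the gene, dropped only the distal Tbx5 peak and gave 33.3% overlapped. With 1 peak call per genotype, intervals of levels and of level ratios cover counting error only. Intervals of shares treat peaks or genes as separate draws, although the genes were chosen and some peaks share a gene.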

Other observations

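Genes that act with the T-box factors were read in the same lists. Of 26 genes of gastrulation and early mesoderm, 12 had a peak in Eed-/- cells and 17 in Eed+/+ cells, 11 of them in both. Over the whole lists, 61.4% of gene names with an Eed+/+ peak also had an Eed-/- peak. Of the 23 Eed+/+ peaks of this list, 12 (52.2%) were overlapped in Eed-/- cells. Foxa2 (endoderm and node), Gsc (organizer), Cdx2 (trophectoderm and posterior body) and Lhx1 (head organizer) had the highest Eed+/+ fold enrichments with an overlapping Eed-/- peak. Their fold enrichments were 5.57 in Eed-/- and 71.0 in Eed+/+ for Foxa2, 7.91 and 60.0 for Gsc, 7.17 and 48.0 for Cdx2, and 5.46 and 42.7 for Lhx1. Hand1, Bmp4, Kdr and Cdx4 had Eed+/+ peaks only, with fold enrichments of 21.7, 20.5, 19.7 and 11.9. Fgf4, which is expressed in mESCs, had an Eed-/- peak (fold enrichment 4.30) and none in Eed+/+. It was chosen after its values were seen, as were Nppa and Sall1.

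Of 19 heart genes, 8 had a peak in Eed-/- and 14 in Eed+/+ cells, 8 of them in both, and 11 of 30 Eed+/+ peaks (36.7%) were overlapped. Hand2, Gata6, Bmp2 and Gata4 led those with an overlap, with fold enrichments of 6.47 in Eed-/- and 62.4 in Eed+/+ for Hand2. Isl1, Hand1, Mef2c and Bmp4, with fold enrichments of 26.7, 21.7, 21.5 and 20.5, had Eed+/+ peaks only. Nppa, a natriuretic peptide gene activated by Tbx5, had no peak in either list.

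Of 18 limb genes, 11 had a peak in Eed-/- and 14 in Eed+/+ cells, 10 of them in both, and 11 of 33 Eed+/+ peaks (33.3%) were overlapped. Sall1 had an Eed-/- peak (fold enrichment 6.39) and none in Eed+/+. Hand2, Msx1, Pitx1 and Shh led those with an overlap. Prrx1, Meis2, Meis1 and Msx2 had Eed+/+ peaks only, and the Prrx1 peak, at a level of 5.98, had a higher fold enrichment (67.0) than any T-box peak of either list. Over the whole Eed+/+ list 53.1% of peaks were overlapped, and 61.4% of gene names also had an Eed-/- peak. The median level ratios of overlapping pairs were 0.179, 0.167 and 0.172 for the gastrulation, heart and limb lists. They stand beside 0.200 for the 10 T-box genes and 0.225 over all pairs. At the 7 other T-box genes the median was higher, 0.324 over 4 pairs, so a low ratio is not read as general to the family. Hand1, Hand2, Bmp4 and Fgf8 are in more than one list.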
